A study of Mus musculus with 48 samples.

Results

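The transcripts described here belong to the TGF-β and activin signalling pathway in mouse 3T3-L1 cells: the ligands Tgfb1, Tgfb2 and Tgfb3, the receptors Tgfbr1 and Tgfbr2, the activin subunits Inhba and Inhbb, and the binding proteins Fst, Fstl1 and Fstl3. Members were every probe listed under 1 of these 10 symbols. Of the 10 genes, 8 were read by 12 of the 24613 probes (18991 symbols), and Inhba and Inhbb were not analysed here. 3T3-L1 is an established mouse fibroblast-like line that turns into fat cells under a hormone cocktail. Before differentiation, cells were transfected with 50 nM of a pool of siRNAs against PPARγ, the nuclear receptor that drives fat cell formation (PPARγ KD), or with a non-targeting siRNA pool (control siRNA). All cells of both arms were treated at confluency with 0.5 mM IBMX and 0.25 µM dexamethasone from day −2 for 48 h, and from day 0 with 5 µg/ml insulin and 1 µM rosiglitazone, a PPARγ ligand, for 48 h. RNA of day −2 and of each day from day 0 to day 6 was hybridised in 3 biological replicates to 48 Illumina MouseRef-8 arrays, so that each siRNA and day had 3 arrays. The model is a single cell line with a transient knockdown by pooled siRNAs.

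TGF-β ligands are secreted in a latent form, bind the type II receptor TGFBR2, which recruits the type I receptor TGFBR1, and signal through SMAD2 and SMAD3. Activins, dimers of inhibin β subunits, use a parallel receptor pair and the same SMADs, and follistatin (FST) binds activins and keeps them from their receptors. In preadipocytes this pathway is known as a brake on fat cell formation and as a driver of extracellular matrix production.

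Signals are given as log2 of the background-corrected and scaled bead intensity, and differences as PPARγ KD minus control siRNA on that scale. A value is said to have risen, fallen or been called where limma's p, multiplied by the 24613 probes (Bonferroni), was at most 0.05. The arrays had median intensities between 105.1 and 141.7, and 33.4% to 40.4% of probes passed the background limit, a detection p under 0.01. The day 0 PPARγ KD array of replicate 1 had the lowest median and a scale factor of 1.395. Replicate 3 stood apart, with at most 35.4% of probes above background on its arrays against at least 36.8% on those of replicates 1 and 2. The knocked-down gene, Pparg, was lower in the PPARγ KD in 24 of 24 pairs that shared day and replicate number (log2 difference −2.34, SE 0.04, adjusted p = 9.48e-34 from limma). All 8 adipocyte markers were lower in the PPARγ KD. Their summed signal lay between 172000 and 189000 on the 3 control arrays of day 6 and between 36200 and 41300 on the PPARγ KD arrays. It was already lower on day −2, at 10700 to 12400 against 4650 to 5220. On that day Lpl had the highest control mean of these markers, 13.40 on the log2 scale, beside 6.96 for Gpd1. Adipoq, Fabp4, Plin, Cidec and Cfd were above background on 0 control arrays of day −2, so the sum of that day is mainly a reading of Lpl. All 10 fibroblast markers were above background. Their sum was lower with PPARγ siRNA on day −2 (104000 to 119000 against 122000 to 128000 with control siRNA), when Tgfb2 was also lower. The sums overlapped on day 0 (104000 to 119000 against 101000 to 108000), when the Tgfb2 difference was largest. With PPARγ siRNA the sum was higher on day 6 (135000 to 145000 against 111000 to 125000). Of the defining markers of other lineages, 5 of 6 for macrophages, all 5 for endothelium, all 4 for epithelium and 3 of 4 for skeletal muscle were above background on 0 arrays. The remaining macrophage marker, Lyzs, which encodes lysozyme, was above background on 36 arrays and higher in the PPARγ KD (0.32, SE 0.05, adjusted p = 0.0134, limma). The part of the adipocyte and fibroblast markers in the differences below was not tested, and in these bulk samples fewer cells of a type and less RNA per cell cannot be told apart.

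Of the 12 probes of the pathway members, 8, for 7 genes, were above background on at least 1 array. The brightest probes of Tgfb2, Tgfb3, Tgfbr1, Tgfbr2, Fst and Fstl1 were above background on all 48 arrays and that of Tgfb1 on 38. The probe of Fstl3, a secreted follistatin relative, was above background on 0 arrays, as were 2 further probes of Tgfbr1 and 1 of Tgfbr2, so their values carry no order. Each gene is described by its brightest probe. Over days −2 to 6, 4 of the 8 genes differed between the siRNAs, against 13.1% of all probes and 29.6% of the 10567 probes above background on at least 3 arrays. Relative to control, Tgfb2 was lower and Tgfb3, Tgfbr2 and Fst were higher with PPARγ siRNA. Over days 4 to 6, fitted on their own 18 arrays, 3 of 8 were called, all higher, against 5.31% of all probes in either direction and 1.54% in this one. Of the 10567 probes above background on at least 3 arrays, 12% were called in either direction. By day, 5 of 8 genes were called on at least 1 day, where 12.8% of all probes were, with 8 calls of a higher and 5 of a lower signal in the PPARγ KD. The 3 arrays of each siRNA did not overlap in 26 of the 64 combinations of gene and day, where 12.2% of all combinations of probe and day did not.

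For 3 members that changed with the siRNA or over the days, the 250 bases before an annotated transcript start are shown (RefSeq, GRCm38.p6). Tgfb2 is shown as the ligand with the largest early difference, and Tgfbr2 and Fstl1 because their courses were the most alike among the members. Capitals mark matches, on either strand, to 7 motifs that were searched for: the TATA box TATAAA, the GC box GGGCGG, the E-box CACGTG, the cAMP response motif CGTCA, the nuclear receptor motif AGGTCA, the glucocorticoid motif AGAACA and the SMAD element CAGAC. IBMX raises cAMP and dexamethasone activates the glucocorticoid receptor, which is why these motifs were included.
Tgfb2, chr1:186705990-186706239, minus strand: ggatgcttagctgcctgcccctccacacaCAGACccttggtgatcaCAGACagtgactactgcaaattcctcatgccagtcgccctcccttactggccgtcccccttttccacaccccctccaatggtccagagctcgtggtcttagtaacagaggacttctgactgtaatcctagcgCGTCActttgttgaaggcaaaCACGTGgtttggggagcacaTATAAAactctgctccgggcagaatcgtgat
Tgfbr2, chr9:116175364-116175613, minus strand: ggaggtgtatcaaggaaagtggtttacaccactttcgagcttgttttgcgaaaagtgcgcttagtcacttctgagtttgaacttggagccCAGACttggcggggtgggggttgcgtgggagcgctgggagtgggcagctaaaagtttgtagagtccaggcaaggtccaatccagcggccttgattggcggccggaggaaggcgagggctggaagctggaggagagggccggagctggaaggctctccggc
Fstl1, chr16:37776805-37777054, plus strand: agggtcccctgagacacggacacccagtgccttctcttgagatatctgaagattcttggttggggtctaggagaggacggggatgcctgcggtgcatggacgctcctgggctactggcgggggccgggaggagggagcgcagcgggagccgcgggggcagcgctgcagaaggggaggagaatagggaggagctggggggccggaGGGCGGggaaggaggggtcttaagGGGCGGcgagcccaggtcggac
In the Tgfb2 window, TATAAA begins 31 bases before the start, CACGTG 51 bases and CGTCA 72 bases before it, and CAGAC occurs at 204 and 221 bases. These motifs are found in 12.4%, 6.02%, 17.8% and 42.2% of 32851 windows of the same length before mouse transcript starts. The Tgfbr2 window holds a single match, CAGAC at 160 bases. The Fstl1 window, of 68.0% GC, holds GGGCGG at 46 and 22 bases, a motif of 32.7% of windows. None of the 3 windows holds AGGTCA or AGAACA, which occur in 14.0% and 16.1% of windows, whereas that of Fstl3 holds them at 200 and 179 bases. The Tgfb1 window and the more GC-rich of the Tgfbr1 windows hold 5 and 2 matches to GGGCGG, with 75.2% and 74.8% GC. Tgfb3 and Fst had no entry in the table. A match describes letters only, and binding at these windows was not examined here. The study mapped PPARγ and RXR sites across the genome by ChIP-PET, and those sites were not compared with these windows.

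Tgfb2, the ligand with the largest difference, was lower in the PPARγ KD from day −2 and reached the control level by the end of the course. On day −2 the control arrays read 10.40, 10.31 and 10.09 and the PPARγ KD arrays 9.28, 9.32 and 9.10. On day 0 the control arrays read 10.17, 10.18 and 9.82 and the PPARγ KD arrays 8.56, 8.62 and 8.74. On both days every PPARγ KD array lay below every control array. The log2 difference was −1.03 on day −2 (SE 0.09, adjusted p = 7.7e-09, limma), when 0.861% of all probes were called. It was −1.42 on day 0 (SE 0.09, adjusted p = 5.21e-13, limma), when 3.03% were. Both kept their calls without each replicate, at −1.05 to −0.99 and at −1.59 to −1.32. The adipocyte marker sum differed on the same days, with 19800 to 25300 on the control arrays of day 0 and 4300 to 6350 on those of the PPARγ KD. On day −2 this sum was mainly a reading of Lpl.

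The Tgfb2 difference then narrowed. It was −0.54 on day 1 (SE 0.09, adjusted p = 0.0299) and −0.56 on day 3 (SE 0.09, adjusted p = 0.0169), with no overlap on either day, and 2.91% and 2.76% of all probes called. The values of −0.37 for day 2, with overlap, and −0.38 for day 4, without, were not called. On day 4, 0 members were called in limma, 5 had an unadjusted p under 0.05, and 2.4% of all probes were called. On day 6 the control arrays read 10.62, 10.56 and 10.14 and the PPARγ KD arrays 10.65, 10.75 and 10.17, so the groups overlapped and the difference was 0.08 (SE 0.09). Over days 4 to 6 it was −0.12 (SE 0.05, adjusted p = 1), and over all days −0.53 (SE 0.03, adjusted p = 6.68e-14, limma), with lower signals in 20 of 24 pairs of arrays. The mean difference of days 4 to 6 exceeded that of days 0 to 2 by 0.66 (SE 0.08, adjusted p = 5.82e-06, limma), in a test that called 3.63% of all probes. The calls of days 1 and 3 were lost without the replicate block, with a replicate block by day and without replicate 1 or 2, at −0.58 to −0.52 on day 1 and −0.58 to −0.53 on day 3. That of the narrowing was lost without the replicate block and without replicate 1, with values from 0.65 to 0.67 when a replicate was left out.

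The course of Tgfb2 under control siRNA was shallow. Its mean was 10.27 on day −2, 9.67 on day 1 and 10.44 on day 6, and of the 3 steps tested only the rise from day 2 to day 6 was called (0.65, SE 0.09, adjusted p = 0.000804). In the PPARγ KD it fell by 0.59 from day −2 to day 0 (adjusted p = 0.00565), then rose by 0.78 to day 2 (adjusted p = 1.43e-05) and by a further 1.1 to day 6 (adjusted p = 1.13e-09). The step from day 0 to day 2, the insulin and rosiglitazone phase, differed between the siRNAs by 1.05 (SE 0.13, adjusted p = 4.46e-05, limma), where 4.12% of all probes were called. That call was lost without the replicate block and without replicate 1 or 2, with values from 0.90 to 1.33 when a replicate was left out. The rise from day 2 to day 6 in the PPARγ KD kept its call without each replicate, whereas the control step of the same days and the first 2 steps of the PPARγ KD lost theirs without replicate 1 or 2, at 0.58 to 0.70, −0.71 to −0.53 and 0.63 to 1.04. That control step and the first 2 PPARγ KD steps also lost their calls without the replicate block.

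**Figure D1:**
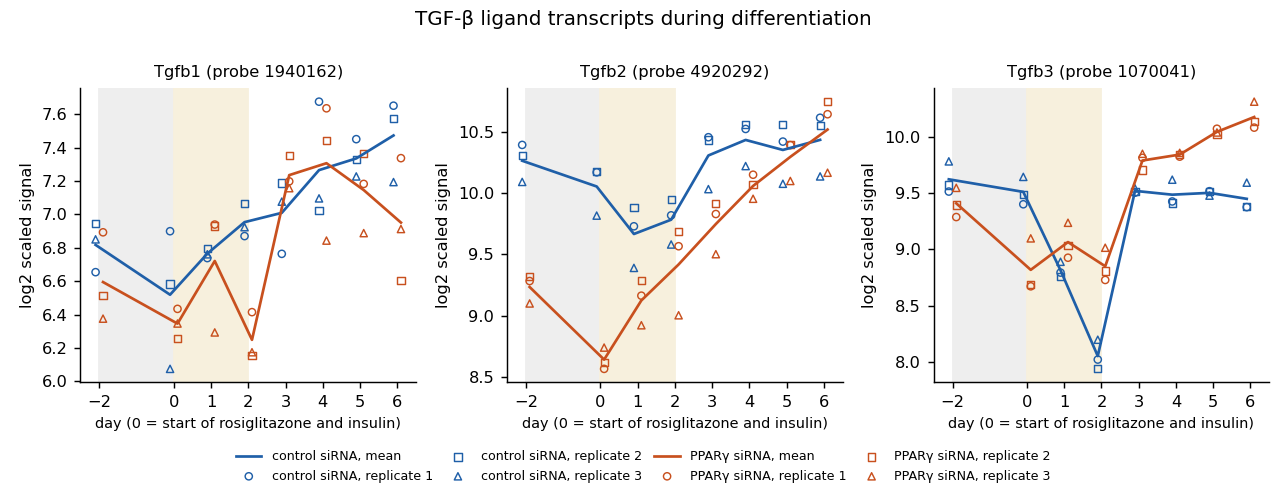
Log2 scaled signal (y axes, each panel with its own range that does not start at 0) of Tgfb1, Tgfb2 and Tgfb3 against the day of differentiation (x axes), with an open symbol for each of the 3 replicate arrays and a line through the means of control siRNA (blue) and PPARγ siRNA (orange). Grey marks the dexamethasone and IBMX phase and cream the insulin and rosiglitazone phase. Tgfb2 in the PPARγ KD starts at 9.23 on day −2 and meets the control level of 10.44 by day 6, while control Tgfb3 dips to 8.05 on day 2.

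Tgfb3 crossed over: it was lower in the PPARγ KD on day 0 and higher from day 1 onward. Control arrays of day 0 read 9.40, 9.49 and 9.64, and those of day 2 read 8.02, 7.94 and 8.20. By day 3 they had returned to 9.50, 9.51 and 9.54. This dip, with no overlap between day 2 and its neighbours, was a fall of 1.46 from day 0 to day 2 and a rise of 1.40 from day 2 to day 6 (SE 0.08 each, adjusted p = 1.62e-16 and 6.97e-16, limma), and both steps kept their calls under every alternative tried.

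In cells with PPARγ siRNA, the first called fall of Tgfb3 was that to day 0. Its day −2 arrays read 9.29, 9.39 and 9.55. The readings were 8.67, 8.69 and 9.10 for day 0, and 8.73, 8.81 and 9.02 for day 2, with every array of these 2 days below those of day −2. It fell by 0.59 from day −2 to day 0 (adjusted p = 6.03e-05), its step from day 0 to day 2 was 0.03 (SE 0.08, adjusted p = 1), and from day 2 to day 6 it rose by 1.32 (adjusted p = 3.97e-15). The fall was no longer called without the replicate block, nor without replicate 1 or 2, at −0.66 to −0.53. The step from day 0 to day 2 differed between the siRNAs by 1.49 (SE 0.11, adjusted p = 6.62e-12, limma), and this call held without each replicate, at 1.40 to 1.55. For the steps before and after it, 0 members had a called difference between the siRNAs in limma, where 0.662% and 2.51% of all probes did, and 4 and 1 had an unadjusted p under 0.05.

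Between the siRNAs, Tgfb3 was 0.69 lower in the PPARγ KD on day 0 (log2 difference −0.69, SE 0.08, adjusted p = 1.2e-06) and 0.80 higher on day 2 (SE 0.08, adjusted p = 2.62e-08), when 8.92% of all probes were called. Differences of 0.25 (day 1), 0.27 (day 3) and 0.36 (day 4) were not called, although the arrays did not overlap. On day 5 the control arrays read 9.52, 9.51 and 9.48 and the PPARγ KD arrays 10.07, 10.02 and 10.04, a difference of 0.54 (adjusted p = 0.000431). On day 6 they read 9.38, 9.38 and 9.59 against 10.08, 10.13 and 10.31, a difference of 0.73 (adjusted p = 3.35e-07). Again no arrays overlapped, and 3.24% and 3.88% of all probes were called on these days. Over days 4 to 6 the difference was 0.54 (SE 0.05, adjusted p = 6.12e-05, limma) and over all days 0.25 (SE 0.03, adjusted p = 4.27e-07, limma). The late mean exceeded the early one by 0.42 (SE 0.06, adjusted p = 0.00113). Without replicate 2 the day 0 call was lost, and without replicate 1 or 2 those of day 5, of days 4 to 6 and of late against early, at −0.76 to −0.64, 0.53 to 0.56, 0.53 to 0.56 and 0.38 to 0.48. Those of day 5 and of late against early were also lost without the replicate block.

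Tgfb1, the best known ligand of the family, was dim, at 127.6 to 321.6 units of deposited intensity, and no difference between the siRNAs was called. Of the 24 arrays per siRNA, 22 with control siRNA and 16 with PPARγ siRNA had a signal above background. On day 2 the control arrays read 6.87, 7.07 and 6.92 and the PPARγ KD arrays 6.41, 6.16 and 6.17, of which 1 was above background. These did not overlap, with a difference of −0.71 (SE 0.17, adjusted p = 1). On the other 7 days the groups overlapped and the differences lay between −0.52 and 0.23. Its mean under control siRNA was 6.52 on day 0 and 7.47 on day 6, and the change over the days was not called there (F-test, adjusted p = 0.499), whereas it was in the PPARγ KD (adjusted p = 0.00367), with means between 6.25 on day 2 and 7.31 on day 4. That the courses differ was not shown, since none of the 3 steps differed between the siRNAs (adjusted p = 1 for each).

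**Figure D2:**
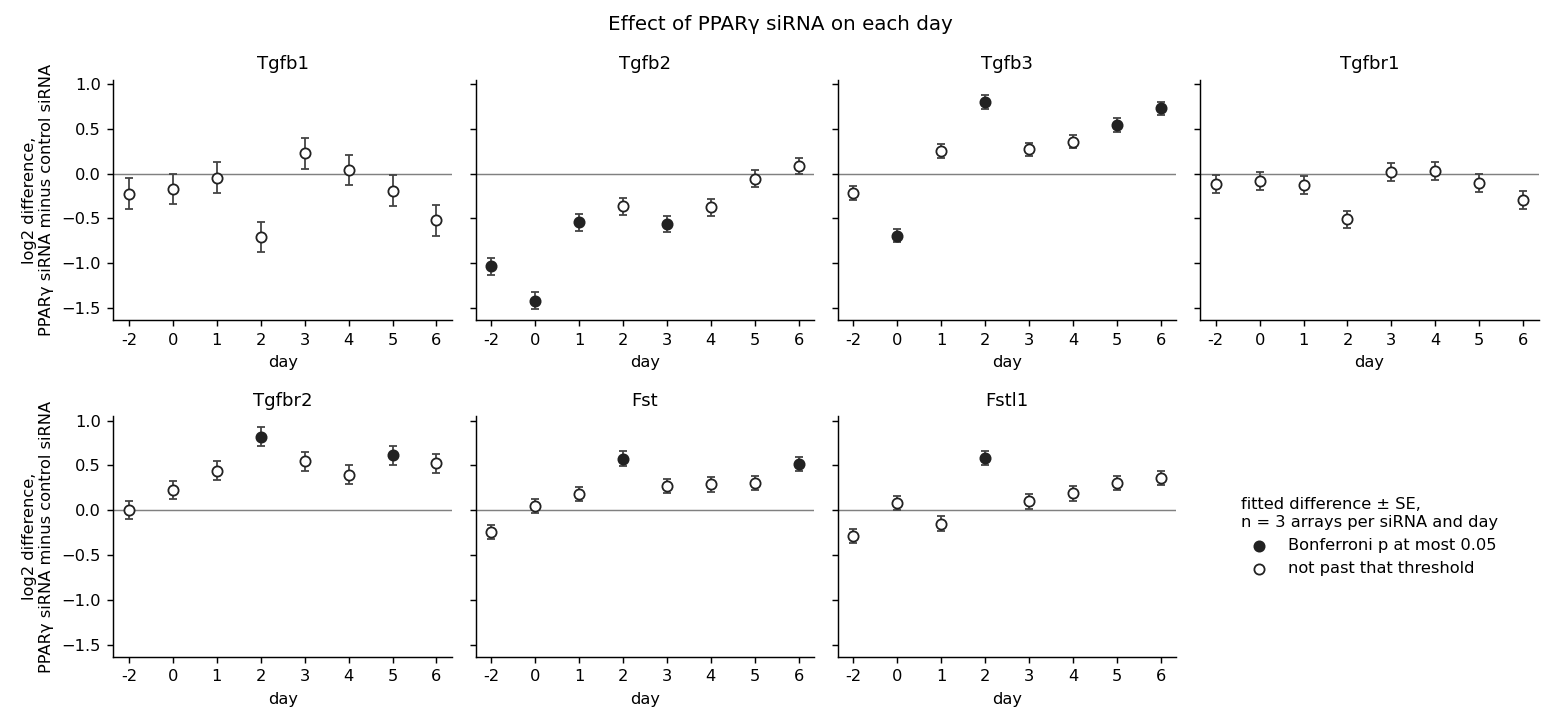
Fitted log2 difference of PPARγ siRNA minus control siRNA (y axis, shared by all panels) on each of the 8 days (x axis) for the 7 members above background. Points are filled where the Bonferroni p was at most 0.05. Bars are 1 SE from limma's fit of all 48 arrays, with 3 arrays per siRNA and day. This SE is the same on every day of a gene and does not show the spread of a single day. Tgfb2 starts at −1.03, reaches −1.42 on day 0 and ends at 0.08, Tgfb3 goes from −0.69 on day 0 to 0.80 on day 2, and Tgfbr2, Fst and Fstl1 have their highest differences on day 2.

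Tgfbr2, the receptor that binds the ligands, rose sharply on day 0 under both siRNAs and afterwards stayed higher in the PPARγ KD. Control arrays went from 11.81, 11.68 and 11.51 on day −2 to 12.84, 12.94 and 12.82 on day 0. PPARγ KD arrays went from 11.55, 11.64 and 11.81 to 12.79, 13.15 and 13.35. The day 0 arrays of each siRNA lay above all of its day −2 arrays, and on neither day did the siRNAs separate. The step was 1.20 with control siRNA (SE 0.10, adjusted p = 2e-09) and 1.43 in the PPARγ KD (SE 0.10, adjusted p = 1.13e-11), and the difference of 0.22 between them was not called.

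From day 0 to day 2, Tgfbr2 fell by 1.58 with control siRNA (adjusted p = 4.44e-13) and by 0.99 in the PPARγ KD (adjusted p = 4.67e-07). All 4 of these steps kept their calls under every alternative tried, and the 0.59 between the falls was not called (SE 0.15, adjusted p = 1). On day 2 the control arrays read 11.32, 11.39 and 11.15 and the PPARγ KD arrays 11.94, 12.23 and 12.15. From this day to day 6, as on day 1, every PPARγ KD array lay above every control array. The difference was 0.82 on day 2 (SE 0.10, adjusted p = 5.29e-05) and 0.61 on day 5 (SE 0.10, adjusted p = 0.0225). It was between 0.40 and 0.55 on days 1, 3, 4 and 6, not called, and 0.00 on day −2.

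Over all days the Tgfbr2 difference was 0.45 (SE 0.04, adjusted p = 4.76e-10, limma), with a higher signal in 21 of 24 pairs, and over days 4 to 6 it was 0.51 (SE 0.05, adjusted p = 0.000228, limma). The call over all days held under every alternative. That of day 2 was lost without replicate 2, with values from 0.73 to 0.92. That of days 4 to 6 was lost without replicate 1 or 2, at 0.49 to 0.55, and that of day 5 whichever replicate was left out, at 0.58 to 0.63. Both were also lost without the replicate block. A further Tgfbr2 probe, above background on 3 arrays, also moved under control siRNA between days −2, 0 and 2. It was not above background on days −2 and 2, so it only bounds these steps as at least 1.17-fold up and at least 1.01-fold down (adjusted p = 0.000824 and 0.014, limma).

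Tgfbr1, the type I receptor that carries the kinase signal to the SMADs, showed no called difference on any day. Its control arrays read 11.88, 11.91 and 11.69 on day 2 and its PPARγ KD arrays 11.37, 11.55 and 11.02, which did not overlap, with a difference of −0.51 (SE 0.10, adjusted p = 0.222). The day 2 difference was called with Benjamini-Hochberg correction and with a trended robust variance estimate. The remaining daily differences lay between −0.30 and 0.03, and 2 of the 8 days had an unadjusted p under 0.05. On day −2, with a difference of −0.11, the groups did not overlap either. No step over time and neither F-test (adjusted p = 0.54 with control siRNA, 1 with PPARγ siRNA) was called.

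**Figure D3:**
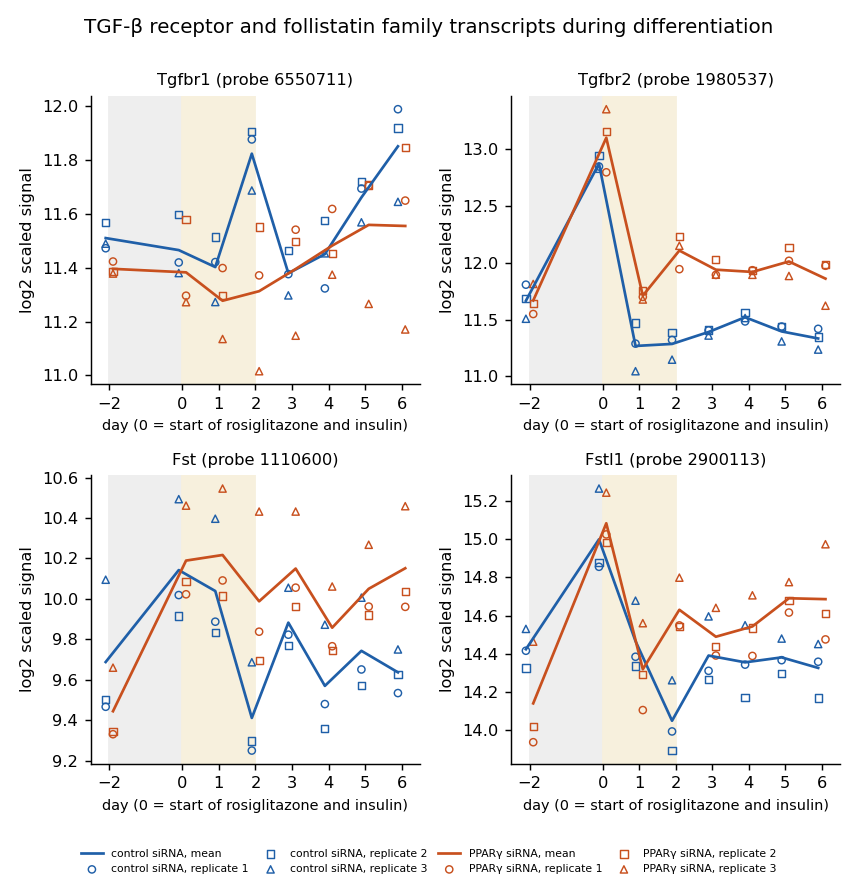
Log2 scaled signal (y axes, each panel with its own range that does not start at 0) of Tgfbr1, Tgfbr2, Fst and Fstl1 against the day of differentiation (x axes), with an open symbol for each of the 3 replicate arrays and a line through the means of control siRNA (blue) and PPARγ siRNA (orange). Grey marks the dexamethasone and IBMX phase and cream the insulin and rosiglitazone phase. Tgfbr2 peaks on day 0 at means of 12.87 and 13.10, and from day 1 its PPARγ KD arrays lie above the control arrays, while replicate 3 (triangles) reads highest for Fst on every day under both siRNAs.

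Fst, which sequesters activin, was higher in the PPARγ KD on days 2 and 6. On day 2 the control arrays read 9.25, 9.30 and 9.69 and the PPARγ KD arrays 9.84, 9.69 and 10.43. On day 6 they read 9.53, 9.63 and 9.75 against 9.96, 10.04 and 10.46. The groups did not overlap on these 2 days and overlapped on the other 6, and replicate 3 was the highest array of both siRNAs on all 8. The difference was 0.58 on day 2 (SE 0.08, adjusted p = 0.00034) and 0.52 on day 6 (SE 0.08, adjusted p = 0.00372). Over all days it was 0.24 (SE 0.03, adjusted p = 6.06e-06), and over days 4 to 6 it was 0.37 (SE 0.05, adjusted p = 0.0191, limma). These Fst calls depended on the replicate block: without it the same differences had adjusted p = 1 in each case, and with a replicate block by day those of day 2, day 6 and days 4 to 6 were not called. Those of day 2, day 6 and days 4 to 6 were lost whichever replicate was left out, at 0.49 to 0.67, 0.42 to 0.57 and 0.36 to 0.38, and that over all days without replicate 1, at 0.24.

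Over time, Fst rose from day −2 to day 0 by 0.45 with control siRNA (adjusted p = 0.0391) and by 0.75 in the PPARγ KD (adjusted p = 6.84e-07), and then fell by 0.73 to day 2 under control siRNA (adjusted p = 1.12e-06). In the PPARγ KD the step from day 0 to day 2 was not called, and the 0.53 between the siRNAs for this step was not either (adjusted p = 0.88). The control rise was lost whichever replicate was left out, at 0.41 to 0.48, and the control fall without replicate 1, at −0.79 to −0.69. Without the replicate block all 3 calls were lost (adjusted p = 1 for each).

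Fstl1, a secreted glycoprotein of the follistatin family that is abundant in preadipocytes, gave 14726.0 to 39741.6 units of deposited intensity. On day 2 the control arrays read 13.99, 13.89 and 14.26 and the PPARγ KD arrays 14.55, 14.54 and 14.80, without overlap. The difference was 0.58 (SE 0.08, adjusted p = 0.000205). On days 5 and 6 the groups did not overlap either, with differences of 0.31 and 0.36 that were not called, as those over all days (0.15, adjusted p = 0.114) and over days 4 to 6 (0.29, adjusted p = 1) were not. For each of the Fstl1 differences over all days and over days 4 to 6, 5 alternatives gave a call, among them quantile normalization and, for days 4 to 6, the contrast in the fit of all 48 arrays (0.29, adjusted p = 0.00595). Fstl1 rose from day −2 to day 0 by 0.57 with control siRNA (adjusted p = 0.000256) and by 0.94 in the PPARγ KD (adjusted p = 5.95e-10). To day 2 it fell by 0.95 (adjusted p = 4.81e-10) and by 0.45 (adjusted p = 0.0319). The day 2 difference and the fall in the PPARγ KD were not called whichever replicate was left out, at 0.55 to 0.60 and −0.46 to −0.44, nor the control rise without replicate 2 or 3, at 0.50 to 0.64. With quantile normalization the fall in the PPARγ KD was −0.24 (adjusted p = 1). Without the replicate block these 3 calls were lost (adjusted p = 1 for each).

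Taking the members over time, the change over the days was called for 5 of 8 genes with control siRNA, and for 6 with PPARγ siRNA, against 23.5% and 16.5% of all probes. From day −2 to day 0, 3 members rose and 0 fell under control siRNA, where 9.06% of all probes were called and 4.01% rose. In the PPARγ KD the same 3, Tgfbr2, Fst and Fstl1, rose and 2, Tgfb2 and Tgfb3, fell, where 7.39% of all probes were called, 3.36% up and 4.02% down. From day 0 to day 2, 4 fell under control siRNA (12.4% of all probes called, 5.81% down). In the PPARγ KD 2 fell and 1 rose (5.06% called, 1.97% down and 3.1% up). From day 2 to day 6, Tgfb2 and Tgfb3 rose under each siRNA, where 12.2% of all probes were called and 6.57% rose with control siRNA, and 4.85% were called and 2.21% rose with PPARγ siRNA.

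Over the 16 means per siRNA and day, the courses of Tgfbr2 and Fstl1 were the most alike among the members (Pearson r = 0.88), followed by Fst and Fstl1 (0.74) and Tgfb1 and Tgfb2 (0.71). These points share arrays and scaling, and the values are descriptions. Among 9217 probes above background on at least 24 arrays, those most like Tgfb2 were Serf1 (0.97), Cygb (0.93) and Ntn2l (0.93), and among those most like Tgfb3 were Arhgef19 (0.95) and Slc25a27 (0.94). Tgfbr2 was most like Uhrf2 (0.957), Scara5 (0.956) and Ercc5 (0.955), Fst like Copg (0.93), Cdh13 (0.89) and Slc25a12 (0.87), and Fstl1 like Npc2, Pdgfra (0.95 each) and Eya3 (0.94). Pdgfra is a receptor that marks preadipocytes. Tgfb1 and Tgfbr1 reached at most 0.88, with D930048N14Rik and Ppp1r15b.

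Of the other genes of the pathway, 80 in 5 lists were read on the array, 23 of them above background on 0 arrays. In the PPARγ KD over days −2 to 6, 14 were higher, 8 lower and 58 not called, beside 6.37% of all probes higher and 6.74% lower. Their median difference was 0.02, beside −0.03 over all probes. For the 56 above background on at least 3 arrays it was 0.09, beside 0.02 over all probes past this limit. Of those probes, 29.6% were called in either direction. Among 19 genes of ligand storage and release and other ligands, 1 rose and 1 fell. Ltbp1, a matrix protein that holds latent TGF-β, had mean signals of 9.97 with control siRNA and 10.68 with PPARγ siRNA (log2 difference 0.71, SE 0.03, adjusted p = 9.11e-18). The difference was positive in all 3 replicates, with an SD of 0.15 between them. Ltbp3, of the same family, was lower (−0.19, SE 0.03).

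Among 11 receptors and coreceptors, 4 rose and 2 fell, and both directions held for the type II receptors of activin. Acvr2a was higher by 0.42 (SE 0.05, adjusted p = 1.09e-06) and Acvr2b lower by 0.59 (log2 difference −0.59, SE 0.04, adjusted p = 3.65e-13). The coreceptor endoglin (Eng) was 0.42 higher (SE 0.05). Lrg1, a secreted glycoprotein that modulates endoglin signalling, was lower by the most (−1.51, SE 0.05, adjusted p = 2.62e-22). Its mean under control siRNA went from 6.76 on day −2 to 10.06 on day 6, against 7.29 in the PPARγ KD on day 6. Among 8 SMADs and partners 2 rose, Smad3, the signal carrier (0.22, SE 0.03), and Tgfb1i1, a focal adhesion protein induced by TGF-β (0.25, SE 0.04). Of 16 inhibitors 1 fell, Ppm1a, a phosphatase that acts on SMADs (−0.17, SE 0.02), and Smad7 was above background on 0 arrays.

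Of 26 known target genes, 7 rose, 4 fell and 15 were not called. Those that rose most were Tgfbi, a matrix protein (0.49, SE 0.04), Timp1, a metalloproteinase inhibitor (0.48, SE 0.03), and Cdkn2b, a cell cycle inhibitor (0.48, SE 0.03). Of the 4 that fell, Myc (−0.49, SE 0.05) was above background on 16 arrays. The others were Tsc22d1 (−0.41, SE 0.04), Cdkn1a (−0.30, SE 0.03) and Id1 (−0.23, SE 0.04). The target list was not split into genes that TGF-β raises and genes that it lowers. Its counts of higher and lower genes therefore give no direction of pathway activity. As for the members, the adipocyte markers were lower in the PPARγ KD, 4 of 10 fibroblast markers rose and 1 fell over the same days, and their part in these differences was not tested.

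**Figure D4:**
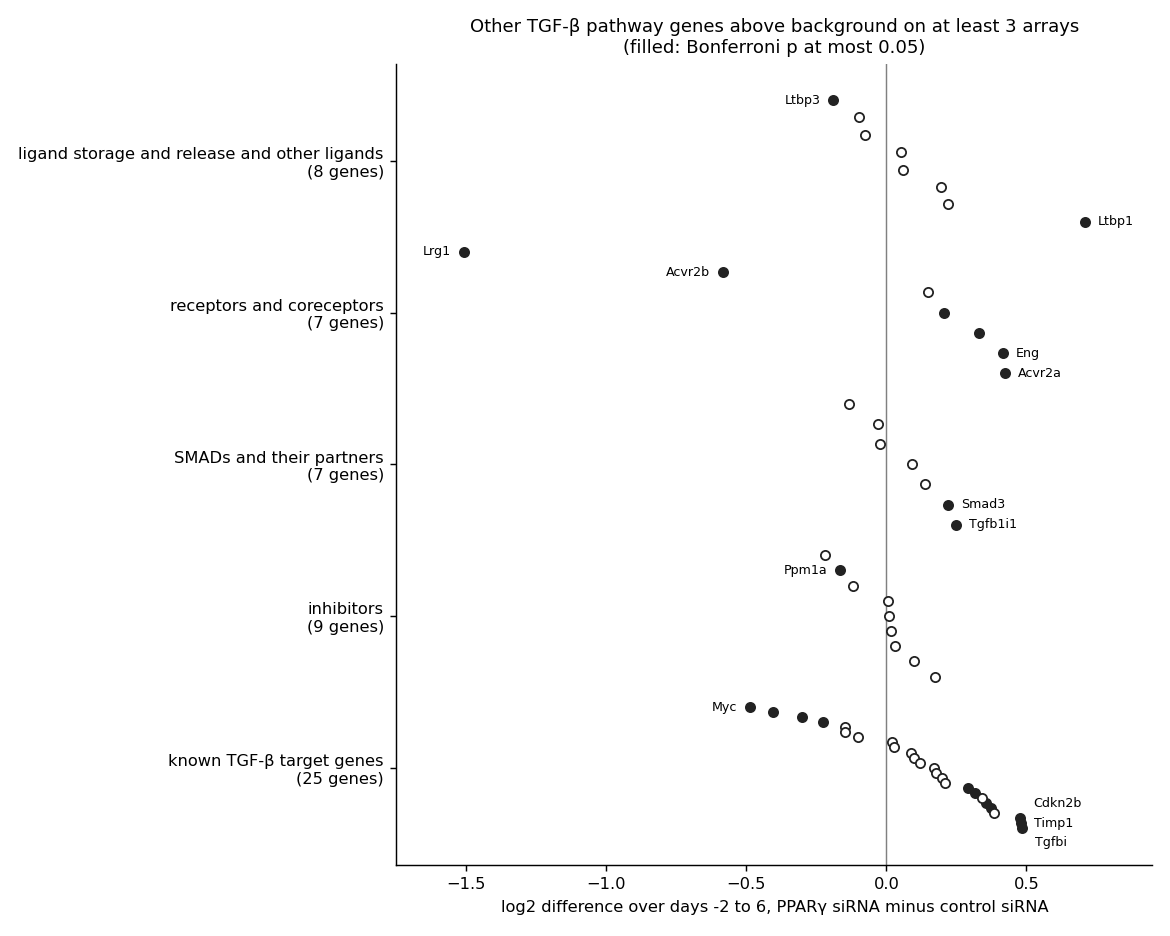
Log2 difference over days −2 to 6, PPARγ siRNA minus control siRNA (x axis), of the other pathway genes above background on at least 3 arrays, 1 point for each gene, grouped by list (y axis, with the vertical order within a list following the value), and filled where the Bonferroni p was at most 0.05. Ltbp1 is the highest at 0.71 and Lrg1 the lowest at −1.51, and the named inhibitor Ppm1a sits at −0.17.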

How the data were processed

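Gene expression was read on Illumina MouseRef-8 v1.1 BeadChips. Per the file headers, the values the authors deposited came from BeadStudio 3.3.7 without normalization: a mean bead intensity, its SD over beads, a bead count and, as a fraction, a detection score equal to 1 minus the detection p. The rank-invariant normalization and batch removal of the study's methods are not in these values. The number of arrays and the signal over background limit the precision.

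Background was removed by normexp with an offset of 16 in limma 3.58.1 (R 4.3.3), using the detection p. Arrays were then scaled on probes between the 50th and 90th percentile whose rank moved by under 0.05 of the probes, with factors from 0.730 to 1.58. The linear model of the log2 values (lmFit, eBayes) held 16 condition means plus a block for the replicate number, which stands for the batch of the study's methods. It held no term for an siRNA effect that differs between replicates. SEs and p-values over several days therefore count the days of a replicate as separate and do not show that spread. Same-numbered arrays deviated together in all 24 pairs (r from 0.544 to 0.914 over probes above background on at least 3 arrays). Over all probes r was 0.024 for the pair of day 0, replicate 1. Steps over time and late (days 4 to 6) against early (days 0 to 2) effects were contrasts of it, and days 4 to 6 were also fitted on their own 18 arrays. In simulated data, 49 of 50 probes changed by 0.5 over days −2 to 6, 31 of 50 over days 4 to 6 and 15 of 50 on day 0 were recovered, with 0 of the unchanged probes called.

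Named are all members and, of each pathway list, up to 4 called genes with the largest difference. Smad7, Tsc22d1, Cdkn1a and Id1 were added after their values were seen. A few genes that these rules would name are not reported here. The members and lists were chosen with earlier results of these data known. Likeness was the Pearson correlation of the 16 condition means. Other normalizations, background corrections, offsets, filters, variance estimates, corrections, blocks and probe choices were tried, and each replicate was left out. Promoter windows came from RefSeq (8 of 10 members matched). Figures were drawn with matplotlib 3.10.9.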

Additional observations from a re-analysis of the deposited data

Results flagged for a closer look

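Single arrays far from their group of 3 were not tested for. The effect of PPARγ siRNA differed between late (days 4 to 6) and early (days 0 to 2) days for 2 members. For TGFB2 the late effect exceeded the early one by 0.66 (SE 0.08, adjusted p = 5.82e-06, limma), and for TGFB3 by 0.42 (SE 0.06, adjusted p = 0.00113). The step from day 0 to day 2 also differed between the siRNAs for these 2 ligands, by 1.05 for TGFB2 (SE 0.13, adjusted p = 4.46e-05) and by 1.49 for TGFB3 (SE 0.11, adjusted p = 6.62e-12).

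Of the pathway list genes named by size of difference, 5 had a late effect below the early one. The difference was −0.45 for LTBP1 (adjusted p = 0.0339), −1.90 for LRG1 (adjusted p = 2.52e-13), −0.39 for PPM1A (adjusted p = 0.000777), −0.49 for CDKN2B (adjusted p = 0.00134) and −0.71 for TIMP1 (adjusted p = 3.98e-09). The late effect was still positive for LTBP1 (0.65), CDKN2B (0.28) and TIMP1 (0.22), not called for the last 2. It was negative for LRG1 (−2.63) and PPM1A (−0.38). On day 0 the adipocyte marker sum was 19800 to 25300 with control siRNA and 4300 to 6350 with PPARγ siRNA, on day 6 it was 172000 to 189000 and 36200 to 41300, and its part in these differences was not tested.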

How the results depend on the processing

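Counts are of calls among the brightest probes of the 8 genes. Among 43 called results of members, 407 of 496 values under the alternatives kept direction and call, 89 kept the direction but lost the call and 0 reversed. Among 97 results that were not called, 54 of 1121 values gained a call. Without the replicate block, the calls fell to 1 over days 4 to 6, 6 by day, 7 and 8 over time with control and PPARγ siRNA, 0 for late against early and 1 for the difference of the steps, from 3, 13, 14, 16, 2 and 2. With a replicate block by day there were 7 by day, without those of TGFB2 on days 1 and 3, TGFBR2 on day 5, FST on days 2 and 6 and FSTL1 on day 2, and FST over days 4 to 6 was not called. With Benjamini-Hochberg correction there were 7 over days −2 to 6 (4 in the analysis as reported), 32 by day and 8 for the steps. Leaving out a replicate gave 3 to 4 calls over days −2 to 6, 0 to 2 over days 4 to 6, 4 to 9 by day, 8 to 11 and 10 to 14 over time, 0 to 2 for late against early and 1 to 2 for the steps. Calls among all probes went from 3227 to between 1749 and 7605 over days −2 to 6, from 1307 to between 547 and 5125 over days 4 to 6, and from 894 to between 331 and 2939 for late against early.

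Among the calls lost without the block were the late against early differences of TGFB2 and TGFB3, those of TGFBR2 over days 4 to 6 (adjusted p = 0.0562) and on day 5, and all 7 calls of FST. The mean of the TGFBR2 probes above background on at least 3 arrays also ended its calls of days 4 to 6 and day 5. An offset of 50 ended the calls of TGFB2 on day 1, of FST for the control step from day −2 to day 0 and of FSTL1 for the PPARγ KD step from day 0 to day 2, and so did omitting background correction, which ended that of TGFB2 on day 3 as well.

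The 24 values that turned direction belong to results that were not called. With quantile normalization, they were the PPARγ KD step from day 0 to day 2 of TGFB3 (−0.048) and the difference of the steps from day 2 to day 6 of TGFB3 (0.071) and FST (0.014). Without background correction, they were that difference for TGFB3 (0.022) and the difference of the steps from day −2 to day 0 for TGFBR1 (−0.0088). With an offset of 50, the day −2 effect of TGFBR2 was −0.00028. With the mean of the TGFBR2 probes, its day 0 effect was −0.0066 and its difference of the steps from day −2 to day 0 was −0.27. When a replicate was left out, the effect of TGFB1 ranged from −0.17 to 0.17 on day 1 and from −0.15 to 0.19 on day 4, and its first difference of steps from −0.30 to 0.43. For TGFB3 the PPARγ KD step from day 0 to day 2 ranged from −0.013 to 0.089. TGFBR1 ranged from −0.059 to 0.099 on day 3, from −0.10 to 0.11 on day 4, from −0.015 to 0.062 for the control step from day 2 to day 6, from −0.12 to 0.044 and −0.14 to 0.023 for the first and next PPARγ KD steps, and from −0.036 to 0.085 for the first difference of steps. TGFBR2 ranged from −0.15 to 0.13 on day −2 and from −0.076 to 0.16 for late against early, FST from −0.014 to 0.086 on day 0, and FSTL1 from −0.0041 to 0.12 for the PPARγ KD step from day 2 to day 6. The cause was not tested. The median of all probes on day 2 was −0.12 with the rank-invariant scaling and −0.002 with quantile normalization. The BeadChip as a block was not run, since the chip of each array was not given in the sources used here. Dim probes, such as that of TGFB1, limit what a difference of this size can show.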
